A study of Drosophila melanogaster with 5 samples.

Results

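Long non-coding RNA (lncRNA) genes of Drosophila melanogaster heads were described across all 5 groups of a polyA RNA sequencing series. The members were the genes whose name in the 29 °C count table carried the lncRNA prefix, apart from the dosage compensation RNAs roX1 and roX2, with at least 10 counts in 1 library and the same gene identifier at 25 °C. The rule was met by 458 of 1933 genes with that prefix, in a 29 °C table of 24034 features that held 13968 protein-coding genes. The members were thus chosen by the counts themselves, that is by level, with no use of a difference between groups. Of the 1929 candidates present in both tables, 607 had 0 counts in every library and 864 had 1 to 9 counts at most. Just inside the threshold, 29 members had a highest count of 10, and just outside it 34 genes had a highest count of 9.

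The groups were Levodopa-fed wild-type flies and wild-type controls at 25 °C, and histone H1 overexpression (H1OE) flies, Levodopa-fed wild-type flies and wild-type controls at 29 °C, with 1 labelled sample each. Levodopa is the precursor of dopamine, and the labels' protocols give 4 g/L in the food for 7 days. For H1OE, flies with a temperature-sensitive elav driver, which is active in neurons, were crossed to a strain overexpressing H1, the linker histone that binds nucleosomes and compacts chromatin. The crosses were kept at 18 °C and the offspring were moved to 29 °C for 7 days. The labels do not give the 29 °C control the driver, the cross temperature or the time at 29 °C, so these differ from H1OE by label together with the transgene. The number of flies behind a sample, their sex and their age are not given.

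Long non-coding RNAs are transcripts that are processed like messenger RNAs, often capped and polyadenylated, but carry no long open reading frame. Some act in the nucleus on chromatin or on RNA-binding proteins, some are precursors of small RNAs, and for others the act of transcription affects a neighbouring gene. In flies many are transcribed in the nervous system or the gonads, and most members here are known only by a CR number, with no role known with certainty. PolyA selection detects only the polyadenylated share of such RNAs.

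The libraries held 25947583 to 30334054 counts in the 25 °C columns (2 columns per sample) and 24770629 to 26832877 counts at 29 °C (1 column per sample). A gene with 0 counts could have had up to 3 counts, which is 0.0942 to 0.124 CPM (counts scaled to a common library size, with TMM scaling). This limit and all counting intervals cover counting error only. The tissue is labelled both as heads and as brain. Photoreceptor markers summed to 35286 to 45500 CPM, so the libraries held head tissue beyond the brain. Fat body markers summed to 2736 to 7387 CPM, of which the gene apolpp alone gave 2678 to 6250 CPM. Testis and ovary markers were near 0, at 4.65 to 6.73 CPM over 8 genes and 0.537 to 2.11 CPM over 5 genes. The 23 annotated His1 genes had 0 counts in every 29 °C library, H1OE included, and 1 count in 1 Levodopa column at 25 °C, so these libraries do not check the overexpression label. In bulk heads, fewer cells of a type and less RNA per cell cannot be told apart.

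Most members were short, rare transcripts. The median exonic length was 801 bases (201 to 21710), against 1737 bases for all protein-coding genes of the 29 °C table, whatever their counts. Protein-coding genes that met the count filter of a comparison had medians of 2070 to 2116.5 bases. The median of the highest count of a member over the 7 columns was 24.5, 73 members reached 100 counts and 10 reached 1000. On the per-length scale of the deposited FPKM, averaged over the 5 groups, the member median was 0.583, 314 members lay under 1 and 15 reached 10. Members took 0.483% and 0.478% of all counts in the Levodopa columns and 0.329% and 0.325% in the control columns at 25 °C. At 29 °C they took 0.526% in H1OE, 0.502% in Levodopa and 0.444% in control. The 3 most counted members made up 67.9 to 81.5% of these counts, so the shares describe mainly those 3 genes.

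The coordinates in the files (build dm6) were those of the gene annotation for all 458 members. Chromosome arm 2L held 99 members, 2R 89, 3L 95, 3R 97, X 70 and chromosome 4 held 8. Of the members, 282 (61.6%) lay outside protein-coding genes, at a median distance of 726 bases from the nearest one, and 162 of these lay within 1000 bases. A further 109 (23.8%) lay inside the span of a protein-coding gene without sharing exon bases. Exons shared bases with a protein-coding gene on the opposite strand in 40 members (8.73%) and on the same strand in 27 (5.9%). The labels' library protocol describes no strand marking, so reads of these 67 members and of their partner genes cannot be told apart where the exons overlap. A single exon in every annotated transcript was found in 260 members (56.8%).

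The highest level per length was that of noe (lncRNA:noe, a non-coding RNA gene described from the nervous system; chromosome 3L, 17400272 to 17401348, minus strand, inside the span of blot). Its deposited FPKM was 208 and 210 in the Levodopa columns and 221 and 223 in the control columns at 25 °C, and 799 in H1OE, 840 in Levodopa and 769 in control at 29 °C. All 3 libraries at 29 °C stood above all 4 columns at 25 °C, and the mean over groups was 568. The next level was that of lncRNA:CR42862 (3L, 224106 to 230964), with 522 and 517 FPKM in the Levodopa columns and 307 and 305 in the control columns at 25 °C, and 594, 554 and 486 FPKM in H1OE, Levodopa and control at 29 °C. CR42862 shares 492 exon bases with CG33229 on the same strand, and was the most counted member, with 43709 to 87201 counts. The order of noe and CR42862 depended on temperature, since CR42862 was above noe in all 4 columns at 25 °C and below it in all 3 libraries at 29 °C.

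Below these came lncRNA:CR34335 (mean FPKM 111), lncRNA:CR44832 (97.3), lncRNA:CR31451 (60.8), lncRNA:CR31781 (46.1), lncRNA:CR44922 (43.9), lncRNA:CR40469 (35.2), lncRNA:CR42491 (21.5) and lncRNA:CR43417 (19.9). The ranges of neighbouring genes in this order overlapped. CR34335 lay between 98.0 and 138 FPKM over the 7 columns and CR44832 between 37.9 and 175 FPKM. CR40469 had the widest range of these 8 in fold terms, 69.9 to 104 FPKM over the 25 °C columns and 0.363 to 2.54 FPKM over the 29 °C libraries. CR42491 shares 377 exon bases on the same strand with RpL22, a gene of the large ribosomal subunit with 27011 to 55620 counts. FPKM were made separately for each temperature, so orders across temperatures are descriptions.

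**Figure D1:**
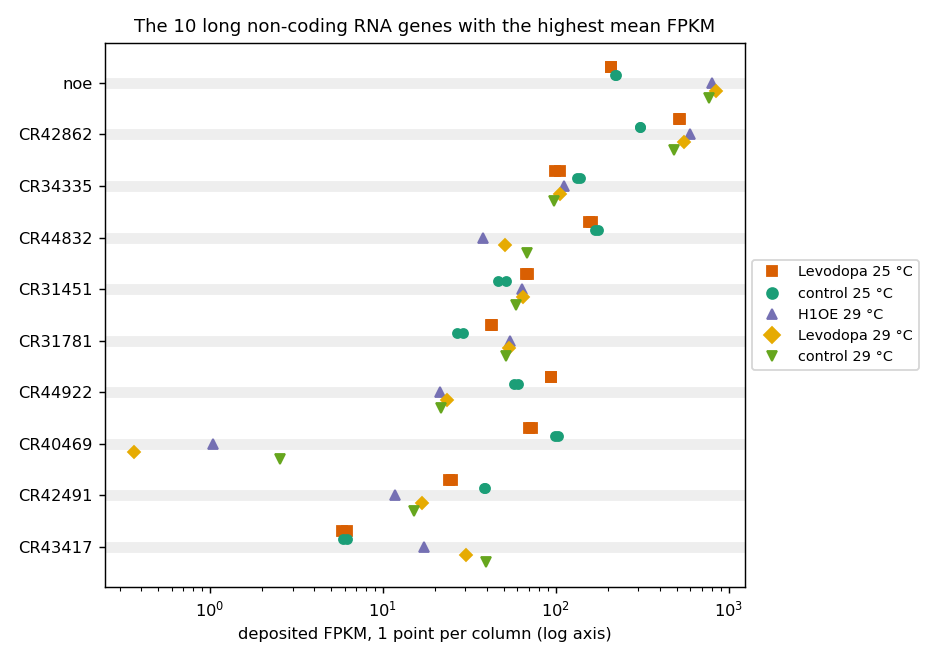
Deposited FPKM (horizontal log axis) of the 10 members with the highest mean FPKM over the 5 groups, 1 point per column or library. The 29 °C points of noe lie to the right of its 25 °C points, and those of CR40469, at 0.363 to 2.54, lie far to the left of its 25 °C points.

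Of the listed lncRNA genes with a known function, the members were noe, Hsromega, let7C, cherub, dntRL, CR33942 and CR30055. Many other listed names were not found with the lncRNA prefix, so their level was not read. Of the 7 names in the immune list, 2 were found and 2 were members. The bithorax complex RNAs bxd, iab4 and iab8 and the locomotor gene CRG had 0 counts in all 7 columns. The courtship gene sphinx had 7 counts at most, acal 6 and yar 2. Of the 15 germline and testis genes in the table none was a member, 10 had 0 counts throughout and the piRNA cluster transcript flam reached 9 counts.

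Hsromega (3R, 21296127 to 21317836) makes the heat-inducible nuclear RNA of the omega speckles, which hold heterogeneous nuclear ribonucleoproteins. It had 12230 and 11799 counts (384 and 371 CPM) in the Levodopa columns, against 8048 and 8999 counts (326 and 330 CPM) in the control columns at 25 °C. The groups did not overlap, and the log2 fold change of 0.22 (SE 0.02, edgeR adjusted p = 6.61e-18) was below the 2-fold minimum set for a call. At 29 °C it had 4816 counts in H1OE (176 CPM) and 4580 in Levodopa (175 CPM), against 3760 in control (155 CPM). These differences were below 2-fold. The control at 29 °C was 2.24 times lower than the control at 25 °C (counting interval 2.17 to 2.32).

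The gene let7C (2L, 18455717 to 18473132) makes the primary transcript of the microRNAs let-7, miR-100 and miR-125, which act in developmental timing. It had 63 and 82 counts in the Levodopa columns, against 28 and 41 in the control columns, and a log2 fold change of 0.79 (SE 0.31, edgeR adjusted p = 0.0207) that did not reach 2-fold. At 29 °C it had 29 counts in H1OE and 25 in Levodopa, against 30 in control. Exons of let7C share 169 bases with CG10283 on the opposite strand. The neural stem cell RNA cherub had 12 counts at most, in 1 Levodopa column at 25 °C, and its columns overlapped between the groups. CR30055 (2R, inside Sin3A on the opposite strand) had 629 and 714 counts in the Levodopa columns, against 390 and 415 in the control columns (log2 fold change 0.46, SE 0.10, edgeR adjusted p = 4.05e-06), below the 2-fold minimum. The gene dntRL had 23 and 36 counts in the Levodopa columns, against 25 and 40 in the control columns, and these overlapped. At 29 °C it had 13 counts in H1OE and 0 in Levodopa, against 1 in control, and was more than 2-fold higher in H1OE at these low counts (log2 fold change 1.01 after 10 counts were added to each).

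Levodopa feeding at 25 °C was accompanied by more members above than below control. Of 377 members with at least 10 counts in 1 of the 4 columns, 26 rose and 6 fell at least 2-fold with an edgeR adjusted p under 0.05. DESeq2 called 13 and 2, and leaving out 1 column at a time gave 6 to 21 higher, with the fewest without the first Levodopa column, 10 without the second and 16 without the first control column, and 2 to 3 lower. Over all 11799 features tested, 2.02% were called higher and 3.14% lower, while among members the shares were 6.9% and 1.59%. The median log2 fold change of the members was 0.36, against -0.0034 over all features and -0.063 over protein-coding genes, not matched on level. A filter on 10 counts in 1 column lets in genes that are high in only 1 group, so the counts of calls give no support to a difference between members and other genes. A filter of a mean of at least 20 counts over all 7 columns was added after the data were seen. Under it, 9 of 145 members were higher and 1 was lower, against 1.75% and 2.78% of all 10121 features. The members' median was then 0.42, against -0.0060 over all features. These shares are not matched on level. At a mean of 20 to 100 counts, 7 of 96 members were higher and 1 lower, against 6.02% and 3.16% of all such features. Under 20 counts, 18 of 233 members were higher and 5 lower, against 5.41% and 2.74%. At 100 counts or more, 1 of 48 was higher and 0 lower, against 0.545% and 3.22%.

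The labels give 1 sample per group, so these p-values rest on the spread between the columns of a sample alone, which may be technical. The variance of member counts between columns was 1.85 times the Poisson variance in Levodopa and 2.77 times in control. Without the fold minimum, 62 members had an adjusted p under 0.05 with a higher level and 17 with a lower one, against 26.5% and 32% of all features. Both Levodopa columns lay above both control columns in 149 of the 377 members (39.5%) and below them in 51 (13.5%), against 36.6% and 40.3% of all features. Among features with a mean of 100 counts or more, 48 members had a median of 0.35 and 8295 protein-coding genes one of -0.074. At 20 to 100 counts, 96 members had one of 0.42, against 0.12 over all features and -0.033 over protein-coding genes. Under 20 counts, where most members lay, 233 members had one of 0.35, against 0.30 and 0.066. Gene length moved with the fold change. Members up to 801 bases had a median of 0.16 and longer members 0.54, and protein-coding genes up to that length had one of -0.52, against -0.020 for longer ones. Neuronal markers summed to 1816 and 1806 CPM in the Levodopa columns and to 1242 and 1224 CPM in the control columns, with 0 of 4 called. Fat body markers summed to 2875 and 2868 CPM in the Levodopa columns and to 2736 and 2756 CPM in the control columns. Of these sums, apolpp alone gave 2836 and 2833 CPM with Levodopa and 2678 and 2694 CPM in control. Of 6 fat body markers compared, 1 was called higher (Lsp2, log2 fold change 3.10) and 1 lower (Cyp4g1, -4.05). The part of length or of these cell types in the members' differences was not tested.

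Of the 32 called members, 5 had at least 50 counts in 1 column. The largest rise among them was that of lncRNA:CR44458 (2R, 15371695 to 15372595, 175 bases from the mismatch repair gene Pms2). It had 131 and 163 counts (4.11 and 5.12 CPM) in the Levodopa columns, against 49 and 29 counts (1.99 and 1.06 CPM) in the control columns, a log2 fold change of 1.63 (SE 0.24, edgeR adjusted p = 2.26e-11). Both Levodopa columns were more than 2-fold above both control columns, and Pms2 itself had a log2 fold change of 0.11. lncRNA:CR45517 (X, 5428483 to 5429256, 266 bases from CG16756) had 135 and 127 counts in the Levodopa columns, against 49 and 34 in the control columns (log2 fold change 1.37, SE 0.24, edgeR adjusted p = 4.09e-08). The neighbouring CG16756 moved the other way, with 819 and 708 counts in the Levodopa columns, against 1242 and 1331 in the control columns, a log2 fold change of -1.03.

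lncRNA:CR45223 (3R, 17646903 to 17653478), which shares 477 exon bases with CG14322 on the opposite strand, had 150 and 202 counts in the Levodopa columns, against 56 and 85 in the control columns (log2 fold change 1.04, SE 0.20). lncRNA:CR43989 (3L, 11163849 to 11164801) shares 408 exon bases with IRSp53, an actin and membrane regulator, on the opposite strand, and had 53 and 61 counts in the Levodopa columns, against 14 and 33 in the control columns (log2 fold change 1.01, SE 0.37). Columns of the groups did not overlap in either gene. Both calls rested on single columns. Without the first control column the log2 fold changes were 0.84 and 0.58, and without the second Levodopa column 0.81 and 0.90. CR43989 was not called without the first Levodopa column either, at a log2 fold change of 1.11, nor by DESeq2 at 1.04.

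The fall with the most counts was that of lncRNA:CR43452 (3R, 20678183 to 20679079). It had 25 and 29 counts (0.785 and 0.911 CPM) in the Levodopa columns, against 72 and 79 counts (2.92 and 2.89 CPM) in the control columns, a log2 fold change of -1.76 (SE 0.33, edgeR adjusted p = 2.60e-07). The nearest protein-coding gene, CG4000, 832 bases away on the opposite strand, was lower as well, with 1122 and 1138 counts in the Levodopa columns, against 3066 and 3498 in the control columns, a log2 fold change of -1.82. The other 22 rises and 5 falls were in members with fewer than 50 counts in every column. CR33942, from the immune list, had 385 and 315 counts in the Levodopa columns, against 520 and 561 in the control columns. Its log2 fold change of -0.91 (SE 0.10, edgeR adjusted p = 9.66e-18) was just below the 2-fold minimum.

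**Figure D2:**
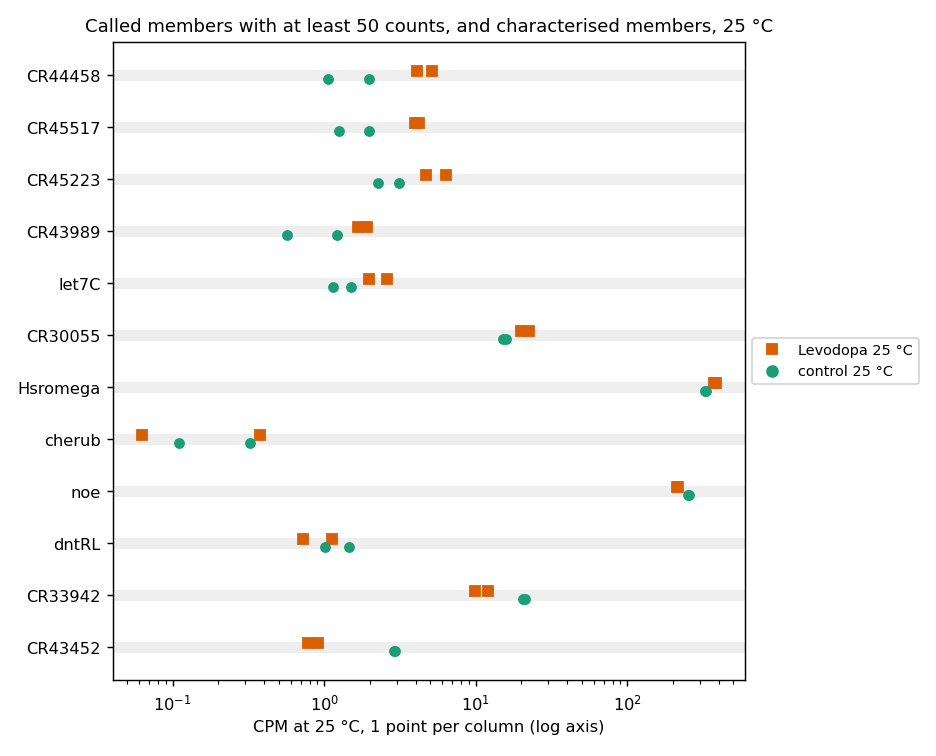
CPM at 25 °C (horizontal log axis, 1 point per column) of the 5 called members with at least 50 counts and of the 7 characterised members, ordered by log2 fold change. Levodopa columns stand to the right of control for CR44458 and to the left for CR43452, while the columns of cherub overlap.

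At 29 °C the fold changes of the members with Levodopa centred near those of all features. With 1 library per group there was no test, so a size rule was applied instead. Each library was given 10 further counts (scaled to the mean library), and a gene passed if the ratio then reached 2-fold. Log2 fold changes at 29 °C include these added counts, while folds are ratios of scaled counts. Of 302 members with at least 10 counts in 1 of the 2 libraries, 17 were higher (5.63%) and 20 lower (6.62%), against 1.17% and 1.53% of all 11145 features. The members' median was 0.056, against -0.0042 over all features. All 37 had at most 48 counts in both libraries. Among features with a mean under 20 counts, 13 of 163 members were higher and 19 lower, against 6.17% and 7.74% of all such features. At 20 to 100 counts, 4 of 91 members were higher and 0 lower, against 3% and 2.74%. At 100 counts or more, 0 of 48 were higher and 1 lower, against 0.131% and 0.44%. Of the 73 members with at least 50 counts in 1 of the 2 libraries, 0 passed. The share of all features with at least 50 counts was not computed. Fat body markers summed to 6468 CPM in Levodopa, against 7387 CPM in control, with 5 of 7 past the size rule as lower, among them the larval serum protein gene Lsp1alpha (log2 fold change -4.44) and the yolk protein gene Yp1 (-2.30). Neuronal markers were at 2311 CPM in Levodopa and 2185 CPM in control, with 0 of 4 past it. The part of these cell types in the members' differences was not tested.

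Of the 246 members compared with Levodopa at both temperatures, 20 were called at 25 °C, 26 passed at 29 °C and 0 did both. Over all 10623 features compared at both, 35 did both, which is 7.26% of those called at 25 °C and 15.8% of those that passed at 29 °C. The sign was the same in 60.2% of these members and in 60.2% of all features. CR44458 had 65 counts in Levodopa, against 58 in control (log2 fold change 0.047). CR45223 had 88 counts in Levodopa, against 64 in control (0.31), and CR43989 had 20, against 16 (0.14). Of the listed genes, let7C, Hsromega and CR33942 had log2 fold changes of -0.28, 0.17 and -0.33, none past 2-fold.

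**Figure D3:**
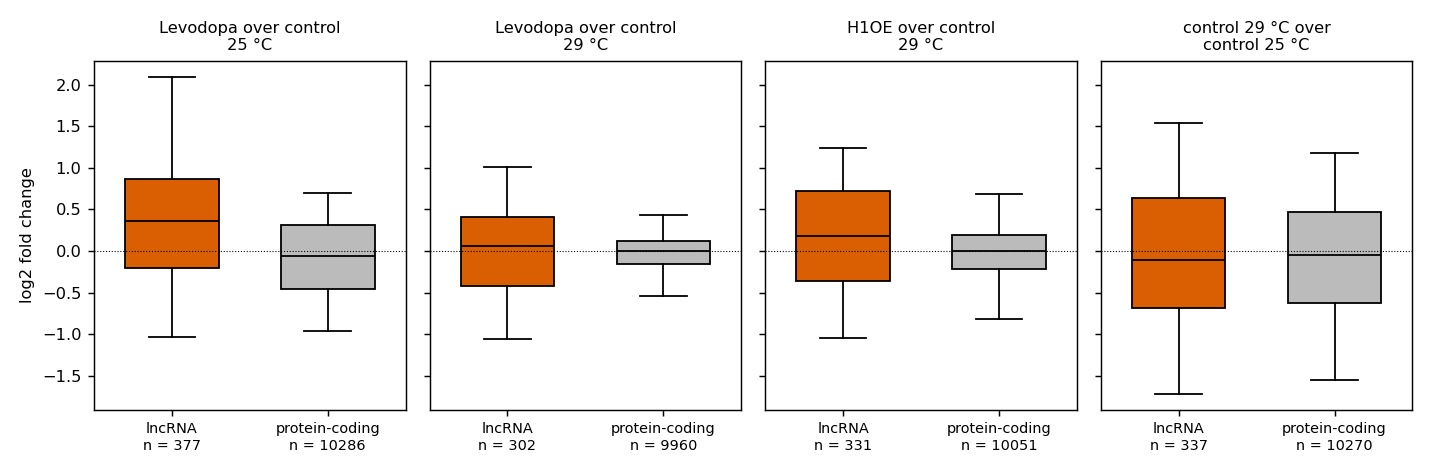
Log2 fold changes (vertical axis) of members and protein-coding genes in 4 comparisons; boxes span the quartiles with the median as a line and whiskers the 5th to 95th percentile. The member box is shifted upwards for Levodopa at 25 °C (median 0.36) and for H1OE (0.18), and is wider than the protein-coding box in each panel.

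H1OE heads had more members above than below the 29 °C control. Of 331 members compared, 49 were at least 2-fold higher (14.8%) and 21 lower (6.34%), against 3.38% and 3.76% of all 11340 features. The median was 0.18, against 0.0017 over all features, and these are not matched on level. With a mean under 20 counts it was 0.30 for members and 0.20 for all features. At 20 to 100 counts these medians were 0.10 and 0.011, and at 100 counts or more 0.11 and -0.0060. Rare transcripts of any kind passed more often in the upward direction. Among features with a mean under 20 counts, 35 of 192 members were higher and 12 lower, against 14% and 8.33% of all such features. With a mean of at least 20 counts over all 7 columns, 14 of 145 members were higher and 9 lower. The members' median was then 0.087, against -0.0035 over all features. Of all 10121 features under that filter, 1.87% were higher and 3.07% lower. These shares are not matched on level. At a mean of 20 to 100 counts, 13 of 92 members were higher and 8 lower, against 6.56% and 8.19% of all such features. At 100 counts or more, 1 of 47 was higher and 1 lower, against 1.05% and 2.2%. Fat body markers summed to 3471 CPM in H1OE, against 7387 CPM in control, with 5 of 7 past the size rule as lower, and haemocyte markers to 566 CPM, against 905 CPM. Neuronal markers were at 2386 CPM in H1OE and 2185 CPM in control, with 0 of 4 past it. The part of these cell types in the members' differences was not tested.

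The widest gap among members with at least 50 counts was that of lncRNA:CR46216 (3L, 19243755 to 19251653, outside protein-coding genes and 1637 bases from mRpL21). It had 103 counts in H1OE and 0 in Levodopa, against 3 in control, and 0 to 4 counts in the 25 °C columns. H1OE was the only library of the 7 with more than 4 counts, and its ratio to the control was 30.4 (counting interval 10.1 to 150). CR46216 thus met the count filters through H1OE alone, and its mean over all 7 columns was under 20 counts. lncRNA:CR44138 (3R, 13376903 to 13377395, inside the span of CG9813) had 70 counts in H1OE and 27 in Levodopa, against 4 in control, a ratio of 15.5 for H1OE (5.79 to 58.4). Its control at 29 °C stood apart from every other library, since the 25 °C columns held 67 to 96 counts. CG9813 itself had a log2 fold change of 0.027 in H1OE.

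lncRNA:CR43653 (3R, 21592350 to 21594852) lies inside the insulin receptor gene InR on the opposite strand, without shared exon bases. It had 208 counts (7.61 CPM) in H1OE and 54 counts (2.07 CPM) in Levodopa, against 31 counts (1.28 CPM) in control, a ratio of 5.94 for H1OE (4.06 to 8.96). H1OE was also above the 25 °C columns, which held 20 to 70 counts. InR was higher in the same library, with 1921 counts in H1OE and 818 in Levodopa, against 827 in control, a log2 fold change of 1.03 in H1OE. At 25 °C CR43653 had 70 and 65 counts in the Levodopa columns, against 20 and 56 in the control columns, and InR had 1039 and 1068, against 535 and 513.

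CR33942 had 114 counts in H1OE and 41 in Levodopa, against 50 in control, a log2 fold change of 0.89 in H1OE that did not pass. The other 7 members with at least 50 counts that passed as higher in H1OE were lncRNA:CR33963, lncRNA:CR46003, lncRNA:CR44756, lncRNA:CR44348, lncRNA:CR44111, lncRNA:CR45267 and lncRNA:CR43301, with 50 to 107 counts in H1OE, against 13 to 42 in control. Their log2 fold changes were 1.02 to 1.26. In all 7 the Levodopa library lay below H1OE, and in 6 it lay above the control by CPM, with CR46003 the exception at 28 counts in both. CR33963 (X, 12659462 to 12660632) shares 186 exon bases on the same strand with Tis11, an RNA-binding protein gene of messenger decay, which had 1680 counts in H1OE, against 1185 in control. CR44111 lies inside rdgA, the diacylglycerol kinase gene of photoreceptors, and had 0 counts in all 4 columns at 25 °C, against 50 counts in H1OE, 31 in Levodopa and 15 in control at 29 °C. The partner genes of the 6 besides CR33963 had log2 fold changes in H1OE of -0.95 (the odorant receptor gene Or67d, with 9 counts in H1OE, against 24 in control) to 0.20 (drn).

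The lower members with at least 50 counts were 4. lncRNA:CR45997 (2R, 17262339 to 17262748, inside the splicing factor gene mbl on the same strand) had 38 counts in H1OE and 195 in Levodopa, against 149 in control, and was 4.43 times lower in H1OE (3.08 to 6.50). The host gene mbl had a log2 fold change of -0.077. lncRNA:CR46350 (3R, 9283875 to 9284525) had 9 counts in H1OE and 53 in Levodopa, against 54 in control, and 0 counts in every 25 °C column. It was 6.78 times lower in H1OE than in control (3.32 to 15.6). lncRNA:CR43417 (2R, 16817519 to 16819240), the most counted of the 4, had 640 counts (23.4 CPM) in H1OE and 1079 counts (41.3 CPM) in Levodopa, against 1307 counts (54.0 CPM) in control, and was 2.31 times lower in H1OE (2.10 to 2.54). lncRNA:CR32658, inside the teneurin gene Ten-a, had 22 counts in H1OE and 44 in Levodopa, against 50 in control, and no longer passed with scaling by total counts (log2 fold change -0.995).

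**Figure D4:**
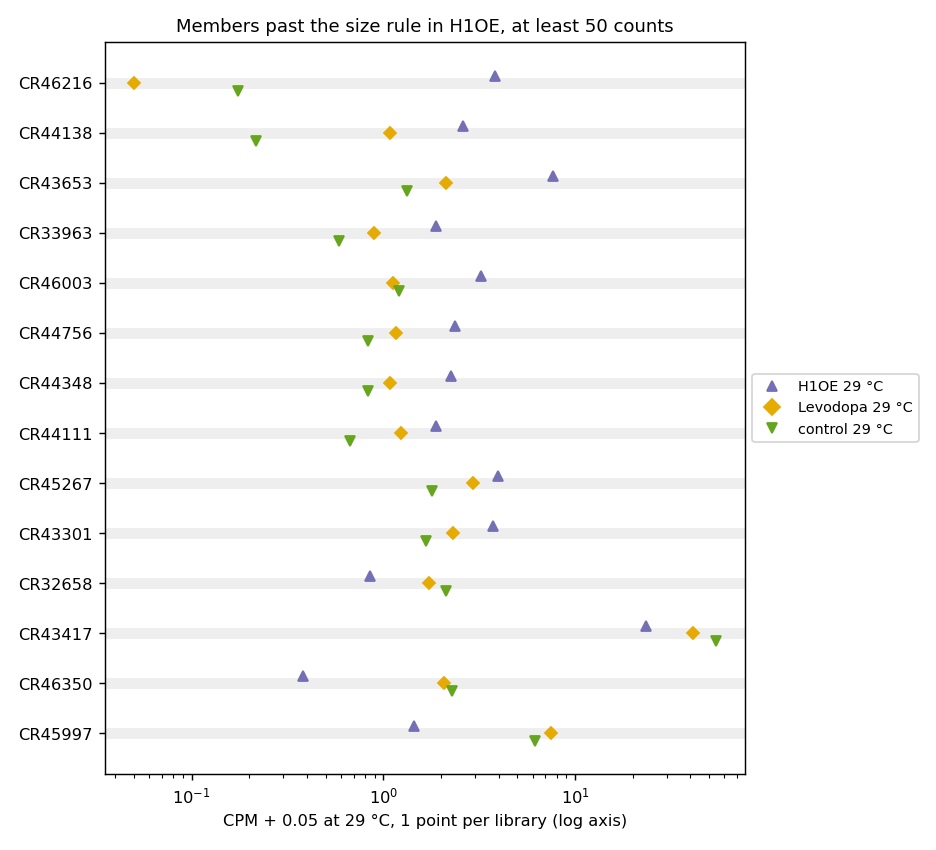
CPM + 0.05 at 29 °C (horizontal log axis, 1 point per library) of the 14 members with at least 50 counts that passed the size rule in H1OE. For the 10 upper genes the H1OE point is the rightmost of the 3, and for the 4 lower genes it is the leftmost, with Levodopa and control close together for CR46350.

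Levodopa at 25 °C and H1OE were compared with separate controls. Of 266 members compared in both, 22 were called at 25 °C, 53 passed in H1OE and 3 did both, which is 13.6% and 5.66% of these lists. Over all 10711 features compared in both, 79 did both, which is 16% of those called at 25 °C and 12.2% of those that passed in H1OE. Of these 3, chosen after their values were seen, lncRNA:CR44708 and lncRNA:CR45706 were higher in both. CR45706 had 42 and 33 counts in the Levodopa columns, against 6 and 13 in the control columns at 25 °C, and 35 counts in H1OE, against 4 in control at 29 °C. CR43452 was lower with Levodopa at 25 °C and higher in H1OE, at 20 counts, against 2 in control. The sign was the same in 65.4% of these members, against 61.2% of all features. No member passed in the same direction with Levodopa at 25 °C, with Levodopa at 29 °C and in H1OE. Levodopa and H1OE at 29 °C share their control library. Of the 229 members compared in all 3, 67 passed at least once (29.3%), against 10.3% of the 10488 features compared in all 3. The 29.3% and 10.3% are not matched on level, and rare features of any kind passed more often. In H1OE, 14% of all features with a mean under 20 counts were higher and 8.33% lower. At 100 counts or more these shares were 1.05% and 2.2%. The gap is therefore not read as a property of the members.

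The controls at 29 °C and 25 °C differed widely in single members. The tables behind them were made separately, and the labels do not say what the flies share, so temperature, stock, batch and processing cannot be told apart and no test was possible. Of 337 members compared, 42 were at least 2-fold higher at 29 °C (12.5%) and 51 lower (15.1%), against 8.65% and 14.4% of all 11623 features. The members' median was -0.11, against -0.064 over all features, and its sign turned to 0.49 when a trend of the fold change on gene length was removed. In features with a mean of 100 counts or more, 4 of 48 members were higher and 16 lower, against 6.9% and 12.8% of all such features. At 20 to 100 counts, 16 of 97 members were higher and 21 lower, against 12.3% and 23.7%. Under 20 counts, 22 of 192 members were higher and 14 lower, against 14.4% and 13.6%. Fat body markers summed to 7387 CPM in the 29 °C control, against 2736 and 2756 CPM in the 25 °C columns, with 6 of 8 past the size rule as higher and 1 as lower. Their part in the members' differences was not tested.

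Among members with at least 50 counts, the largest difference was that of CR40469 (X, 122493 to 122706), a 1-exon gene outside protein-coding genes. It had 13 counts in the control at 29 °C, against 546 and 640 in the control columns at 25 °C, which is 45.1 times lower (26.3 to 85.0). H1OE and Levodopa at 29 °C had 6 and 2 counts and the Levodopa columns at 25 °C 450 and 472, so all 3 libraries at 29 °C were low and all 4 columns at 25 °C high. lncRNA:CR42861 (X, 13744928 to 13745476, 101 bases from Pdcd4) had 8 counts in the 29 °C control, against 242 and 277 in the 25 °C columns, which is 32.1 times lower (16.2 to 74.7). Its other 29 °C libraries held 8 and 11 counts, and its Levodopa columns at 25 °C 281 and 310. CR33942 (2R, 18711391 to 18711951) had 50 counts in the 29 °C control, against 520 and 561 at 25 °C, which is 10.7 times lower (8.05 to 14.5), and 114 counts in H1OE at 29 °C.

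The neighbouring genes lncRNA:CR45456 and lncRNA:CR45457, on 2L between 9325845 and 9327553, were low together. CR45456 had 25 counts in the 29 °C control, against 253 and 276 at 25 °C, and CR45457 had 28, against 127 and 164. The protein-coding gene CG17005, on the same strand 191 bases from CR45457, had 210 counts, against 1206 and 1449, a log2 fold change of -2.59. CR44138 (4 counts, against 67 and 80), CR43452 (2, against 72 and 79), lncRNA:CR46393 (3, against 86 and 89), lncRNA:CR43432 (16, against 107 and 82) and lncRNA:CR44544 (6, against 47 and 53) were also among the 10 largest falls. CR46393 shares 329 exon bases on the same strand with the cryptochrome gene cry. Of these, CR44138 alone was within the range of its 25 °C counts in H1OE, at 70.

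Among the members higher at 29 °C, noe was the most counted, with 19815 counts, against 6173 and 6944, a ratio of 3.05 (2.99 to 3.12). The libraries of H1OE and Levodopa at 29 °C held 23054 and 23278 counts, so all 3 libraries were above all 4 columns at 25 °C. lncRNA:CR45973 (3L, 20404270 to 20407558), whose exons share 912 bases with CG13248 on the opposite strand, had 129 counts, against 4 and 7, a ratio of 23.7 (12.8 to 48.7). lncRNA:CR46446 (2R, 20066483 to 20067395) had 119 counts, against 5 and 5, a ratio of 24.1 (12.6 to 51.5). CR46350 had 54 counts, against 0 and 0, and was at least 36.4-fold higher (computed against 3 counts over both columns).

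CR43417 and lncRNA:CR44380 lie near each other on 2R, on both sides of CG5550, and were high together at 29 °C. CR43417 had 1307 counts in the 29 °C control, against 221 and 233 at 25 °C, a ratio of 5.82 (5.23 to 6.49), and CR44380 had 73, against 5 and 9, a ratio of 10.5 (5.90 to 20.2). Both were lower in H1OE than in the 29 °C control, with 640 and 41 counts. CG5550, which shares 236 exon bases with CR43417 on the opposite strand, had 39 counts, against 5 and 6. lncRNA:CR45054, lncRNA:CR32218, lncRNA:CR45115 and lncRNA:CR46006 completed the 10 largest rises, with log2 fold changes of 1.54 to 2.28.

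**Figure D5:**
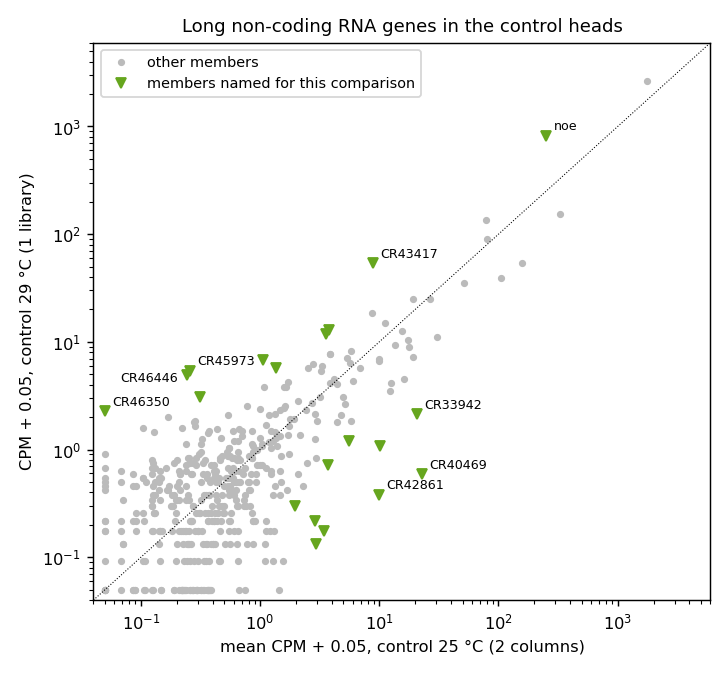
CPM + 0.05 of the 458 members in the control at 29 °C (vertical log axis, 1 library) and in the control at 25 °C (horizontal log axis, mean of 2 columns), with the line of equal values. The 20 named members lie off the line, noe, CR43417 and CR46350 above it and CR40469, CR42861 and CR33942 below it.

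The fold changes of members and of the protein-coding genes beside them showed no order by position that held in every comparison. Over members that share exon bases with their partner gene on the same strand, Spearman's rho between the 2 log2 fold changes was 0.54 for Levodopa at 25 °C (26 members), -0.20 for Levodopa at 29 °C (21), 0.27 for H1OE (22) and 0.42 between the controls (26). Over members that share them on the opposite strand it was 0.021 (35 members), 0.26 (23), 0.14 (25) and 0.33 (29) in the same order. With a mean of at least 20 counts, the same-strand values were 0.41 (16 members), 0.029 (14), 0.029 (14) and 0.31 (16). These are descriptions across genes measured in the same libraries, and genes are not independent replicates. Reads counted to both genes of a same-strand pair cannot be told apart.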

How the data were processed

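PolyA RNA of fly heads was sequenced in 5 labelled samples, 1 per group. HISAT2 2.2.1 and the build dm6 are named in the submitters' processing notes. How reads were counted, and with which strand setting, is not given in the sources used here. Per gene, the authors deposited raw counts, with 2 columns per sample at 25 °C and 1 at 29 °C, and FPKM, a level per exonic length and per library size. At 29 °C, 2 further columns belong to no labelled sample and were not used. The members and lists were chosen with earlier results of these data known.

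At 25 °C all features with at least 10 counts in 1 column were tested with edgeR 4.0.16 (R 4.3.3, quasi-likelihood F test, TMM scaling, Benjamini-Hochberg adjustment over all of them), with an adjusted p of 0.05 and 2-fold as thresholds. Standard errors (SE) were derived from this fit, as the absolute log2 fold change divided by the square root of the F statistic. At 29 °C, and between the controls, the size rule was used (10 counts added, 2-fold) with 95% exact intervals of the ratio of counts. Between the controls the 25 °C columns were summed, and TMM was computed over all 7 columns. The low-count filter was 10 counts in 1 of the libraries compared. DESeq2 1.42.0 was an alternative. The test and the size rule were tried on simulated data. Changes well above 2-fold were placed in genes with a mean of at least 20 counts (25 °C) or 50 counts (29 °C). Rarer genes and changes near 2-fold were not covered. The text names, per comparison, up to 10 largest rises and 10 largest falls among members with at least 50 counts in 1 library that passed, the listed characterised genes that are members, and the 10 members with the highest mean FPKM. Positions were read from the Ensembl gene annotation of the same build. Same-numbered columns did not deviate together across features (correlation 0.019), so columns were not paired.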

Additional observations from a re-analysis of the deposited data

Results flagged for a closer look

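In 5 named members the Levodopa columns at 25 °C lay apart from control in one direction and the counting interval of the ratio at 29 °C lay on the other side of 1. The difference between the temperatures was not tested, and counting intervals are too narrow for the spread seen between columns. Of the 246 members compared at both, 15 met this description. The share of all features that met it was not computed, so 15 is not read as unusual. The sign was the same at both temperatures in only 60.2% of all features. noe had a log2 fold change of -0.23 at 25 °C and 0.12 at 29 °C, where the ratio was 1.09 (1.07 to 1.11). CR45517 had 1.37 at 25 °C and -0.61 at 29 °C, with 60 counts in Levodopa, against 90 in control. CR43452 had -1.76 at 25 °C and 0.98 at 29 °C, with 14 counts in Levodopa, against 2 in control. CR45457 had 0.59 at 25 °C and -1.005 at 29 °C, with 10 counts in Levodopa, against 28 in control, and CR45973 had 1.77 at 25 °C and -0.56 at 29 °C, with 91 counts in Levodopa, against 129 in control.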

How the results depend on the processing

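Depth limits the members with fewer than 50 counts. The number of members was 719 at 5 counts and 281 at 20. For Levodopa at 25 °C, DESeq2 called 13 higher and 2 lower, all 15 also called by edgeR; a filter of 50 counts left 4 and 1, no filter 14 higher, a mean of 20 counts 9 and 1, and removal of the trend on gene length gave 63 and 2. Leaving out 1 column at a time gave 6 to 21 higher and 2 to 3 lower, the lowest without the first Levodopa column. The median of 0.36 was 0.38 with DESeq2 and with its size factors, 0.49 with total-count scaling, 0.42 with a filter of 50 counts, 0.33 with none, 0.42 with a mean of 20 counts, 0.61 without the length trend, 0.25 with the size rule and 0.31 to 0.43 without 1 column. With column number as a replicate block, 23 were higher and 5 lower, with a median of 0.40; the columns share only a number.

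With 1 count added in place of 10, Levodopa at 29 °C had 46 higher and 47 lower members and H1OE 97 and 56, with a median of 0.23. A filter of 50 counts left 0 and 0 with Levodopa, 10 and 4 in H1OE (median 0.13) and 13 and 28 between the controls (median -0.19). A mean of 20 counts left 4 and 1 with Levodopa, 14 and 9 in H1OE (median 0.087) and 20 higher between the controls (median -0.14). Without the length trend, 9 were lower with Levodopa (median 0.11), the H1OE median was 0.23, and the controls had 107 higher and 32 lower with the median turned to 0.49. With total-count scaling the medians were 0.095 with Levodopa, 0.23 in H1OE and -0.028 between the controls. Without members that share exon bases with a protein-coding gene the median was 0.16 in H1OE and -0.0086 between the controls. Of the values of single named members under these alternatives, 14 of 255 no longer passed and 0 changed sign. Many of these values could not fail. Under the size rule, the count filters and leaving out members that share exon bases keep a gene's log2 fold change as it is. Adding 1 count in place of 10 only enlarges it. The number thus says little on how firm the named changes are. The cause of the changes under the alternatives was not tested.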
